A study of Mus musculus with 6 samples.

Results

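The subject is a set of 10 long non-coding RNAs (lncRNAs) measured in the liver of fasted mice with and without the kinase gene *Pak4* in hepatocytes. The members were taken by gene symbol from the 45777 genes of the expression table, and all 10 had a row. They are 2 nuclear-retained RNAs (*Malat1* and *Neat1*), 3 RNAs of imprinted loci (*Meg3*, *H19* and *Kcnq1ot1*) and 5 small nucleolar RNA (snoRNA) host genes (*Gas5*, *Snhg1*, *Snhg5*, *Snhg8* and *Snhg12*). Liver was taken from 3 WT mice, which were *Pak4* flox/flox, and from 3 LKO mice with the genotype Alb-Cre; *Pak4* flox/flox, all C57BL/6, 8 weeks old and fasted for 24 h. Both groups therefore carried the floxed alleles, and only LKO mice carried the Cre recombinase, which is driven by the albumin promoter and acts in hepatocytes. The livers were sequenced whole, so that the other liver cells contributed RNA as well.

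*Malat1* and *Neat1* are neighboring genes whose RNAs stay in the nucleus. *Malat1* RNA gathers in nuclear speckles, which store splicing factors. *Neat1* makes a short and a long RNA from the same start, and the long one is the scaffold of nuclear bodies called paraspeckles. At imprinted loci only the copy inherited from one parent is active: *Meg3* and *H19* are expressed from the maternal copy, and *Kcnq1ot1* from the paternal copy, where it silences neighboring genes. The host genes carry snoRNAs in their introns. After splicing, the snoRNAs guide chemical modification of ribosomal and other RNA, whereas the spliced host RNA is often short-lived and is degraded when ribosomes engage it.

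RNAs of many snoRNA hosts, like those of ribosomal proteins, begin with a C followed by further pyrimidines. The starts of the 5 hosts are shown for this reason, and because all 5 were called in 1 direction in the comparison described later. Each line gives the 30 bases before and the first 30 bases from the annotated start in RefSeq (GRCm38.p6), 5′ to 3′ on the strand of the gene. For *Gas5* the downstream of its 2 annotated starts is given, since the upstream one holds no such tract. Capitals before the start mark TATAAA on either strand, and capitals around the start mark a C followed by at least 4 pyrimidines that begins within 5 bases of it.
*Gas5*, chr1:161035136-161035195, plus strand: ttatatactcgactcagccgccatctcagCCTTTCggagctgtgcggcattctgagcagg
*Snhg1*, chr19:8723457-8723516, plus strand: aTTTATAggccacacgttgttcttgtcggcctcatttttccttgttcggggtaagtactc
*Snhg5*, chr9:88522868-88522927, minus strand: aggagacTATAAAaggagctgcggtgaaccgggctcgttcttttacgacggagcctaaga
*Snhg8*, chr3:123508307-123508366, minus strand: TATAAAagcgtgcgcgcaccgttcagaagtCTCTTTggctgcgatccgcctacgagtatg
*Snhg12*, chr4:132308648-132308707, plus strand: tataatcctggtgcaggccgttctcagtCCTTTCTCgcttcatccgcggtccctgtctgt

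The pyrimidine tract was found at the printed starts of *Gas5*, *Snhg8* and *Snhg12*, against 16.1% of the 32851 promoters in the RefSeq table. The start of *Gas5* was picked for its tract, so that its match cannot be set against this share. The same rule found a tract at 35.6% of 73 promoters of ribosomal protein genes. It depends on the exact annotated start, so that a start without a match, as at *Snhg1* and *Snhg5*, cannot be read as lacking a tract. TATAAA lay in the 30 bases before the start of *Snhg1*, *Snhg5* and *Snhg8*, against 2.04% of all promoters. Neither was particular to the hosts, since the upstream annotated start of *Meg3* held both. A match describes these letters only. Of the members, 8 had an entry in the promoter table, and *H19* and *Neat1* had none.

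The total counts were 45934632 to 55205564 in WT livers and 53936281 to 59576437 in LKO livers. *Pak4* itself was at 2.31 to 2.59 TPM, a level scaled to RNA length and library size, in WT livers and 0.265 to 0.845 TPM in LKO livers, without overlap. On the scale used for the tests, read counts scaled by library size and TMM factors (CPM), *Pak4* had a log2 fold change of −0.71 (SE 0.31, adjusted p = 0.101, edgeR quasi-likelihood F-test), and LKO mouse 3, at 3.22 CPM, lay just above WT mouse 2 at 3.21. The genotypes also differed in library composition: 7SL RNA, a small cytoplasmic RNA, took 4.55% to 5.24% of the counts in WT livers and 11.2% to 15.8% in LKO livers. TMM factors were 1.28 to 1.43 in WT livers and 0.639 to 0.816 in LKO livers. Comparing total counts without these factors lowered the median gene by 0.86 on the log2 scale, and 74.9% of the genes tested had lower TPM in all LKO livers than in any WT liver. For this reason each member is given on more than one scale, and the part of library composition in the results was not tested.

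All 10 members passed the filter on low counts and were tested among 18636 genes. At an adjusted p-value under 0.05 (edgeR quasi-likelihood F-test), 5 members were higher in LKO livers, where 19.6% of all genes tested were called higher, and 2 were lower, where 20.5% of all genes were called lower. All 5 snoRNA hosts were higher, although *Snhg8* and *Snhg12* turned negative on the log2(TPM + 1) scale. The 2 lower members were *Neat1*, of the nuclear-retained RNAs, and *Meg3*, of the imprinted RNAs. *Malat1*, *H19* and *Kcnq1ot1* had negative log2 fold changes that did not pass. The median log2 fold change was −1.51 for the imprinted RNAs and 1.74 for the hosts, against −0.04 for all genes tested. With 3 imprinted RNAs, that median is the value of *H19*, which had few counts and did not pass. The values of the 3 ranged from −1.71 to −0.47. Among the 2036 lncRNAs tested, 16.2% were called higher and 13.1% lower.

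**Figure D1:**
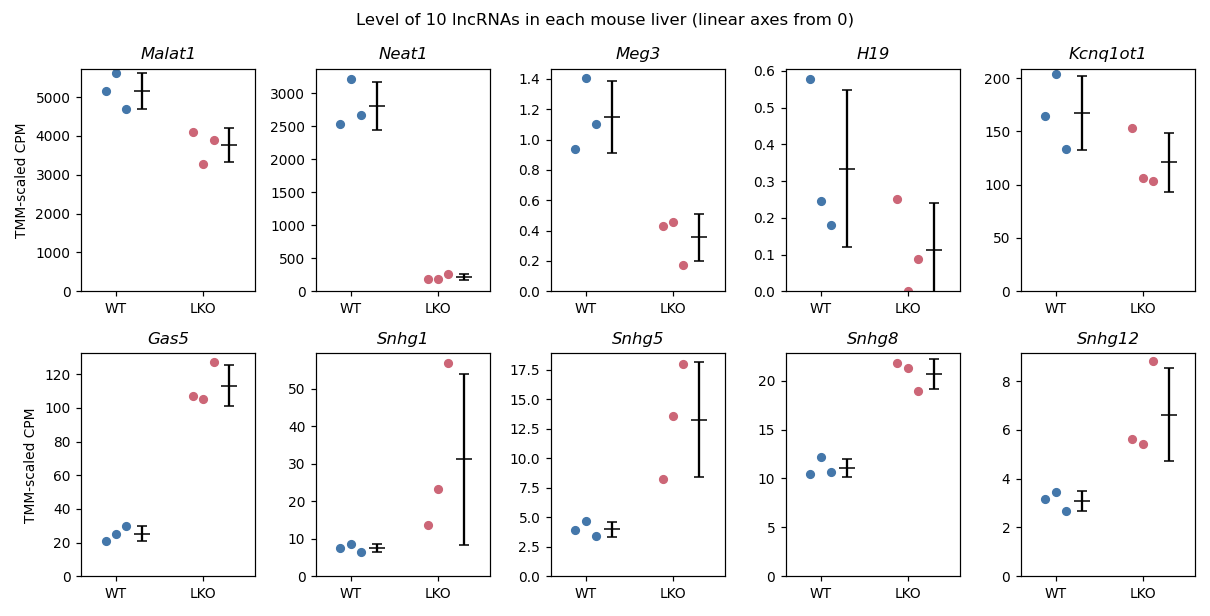
The vertical axis of each panel is the level of 1 lncRNA in TMM-scaled CPM, with a point for each of the 3 WT (blue) and 3 LKO (red) mice and a bar for the mean ± SD, which for *H19* is cut at 0. *Neat1* lay between 2539 and 3222 CPM in WT livers and between 181 and 266 CPM in LKO livers, and the 5 snoRNA hosts in the lower row were above every WT mouse in each LKO mouse on this scale, whereas in TPM this held for *Gas5* alone and *Snhg8* was below every WT mouse.

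*Neat1* (Entrez gene 66961, chromosome 19 from 5824708 to 5845480, minus strand, GRCm38.p6) showed the largest change of the set. It had 189322, 210838 and 176281 read counts in WT livers 1, 2 and 3 and 8282, 6321 and 12312 in LKO livers 1, 2 and 3. All 3 LKO mice were far below all WT mice, and *Neat1* took 0.342% to 0.459% of the counts in WT livers and 0.0116% to 0.0207% in LKO livers. The level was 2809 ± 364 CPM in WT livers and 212 ± 47.2 CPM in LKO livers (SD, n = 3), a 13.3-fold lower mean. The log2 fold change was −3.73 (SE 0.26, adjusted p = 1.89e-04, edgeR quasi-likelihood F-test), the 104th lowest of the 18636 genes tested. The call and the direction were the same on every scale tried, with log2 fold changes from −4.59 to −3.51.

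The deposited table gives the sum over the RNAs of a gene, but the length of those RNAs can be recovered from it. A gene's read count divided by its FPKM (its fragments scaled by length and library size) is proportional to the mean length of its RNAs, each weighted by its abundance. The ratio was calibrated in each mouse on *Malat1*, whose only annotated RNA is unspliced and spans 6983 bases. The calibrated length of *Kcnq1ot1* was 83437 to 83455 bases, against a span of 83437, and that of *Snhg8* was 785 to 786 bases, against a span of 785. This measure was added after the values had been seen.

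The mean length of *Neat1* RNA was 20740, 20708 and 20679 bases in WT livers 1, 2 and 3. It was 7974, 10809 and 6343 bases in LKO livers 1, 2 and 3. WT values thus lay next to the length of the long RNA, 20771 bases in GENCODE, whereas all LKO values lay between it and the short RNA, taken as the 3004 bases of the GENCODE transcript paired with its RefSeq record. From these lengths, the long RNA made up 99.7% ± 0.175 of the *Neat1* molecules in WT livers and 30.2% ± 12.7 in LKO livers (SD, n = 3, exact two-sided permutation, p = 0.1, the least possible with 3 against 3 mice).

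The estimated level of the long RNA was 239, 326 and 237 TPM in WT livers and 4.83, 4.03 and 6.01 TPM in LKO livers, a 53.9-fold lower mean. That of the short RNA was 0.412, 1.16 and 1.24 TPM in WT livers and 12.4, 5.14 and 26.0 TPM in LKO livers, a 15.5-fold higher mean. Neither RNA overlapped between the genotypes (exact two-sided permutation, p = 0.1 for each RNA and the least possible). The TPM of most genes were lower in LKO livers, and the short RNA went the other way. The whole short RNA lies within the first part of the long one, so that the estimate rests on how StringTie divided the shared reads, and a low level of the short RNA under abundant long RNA is poorly resolved. The sources name both a poly(A) and a ribosomal RNA removal kit, and since the long RNA has no poly(A) tail, its share and level depend on which was used.

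Such a change of length was rare. In 2251 genes with at least 2 annotated transcripts and 1000 counts in every mouse, the median ratio of mean length in LKO over WT mice was 1.00. *Neat1* had the lowest ratio of these genes, 0.404, and was the 1 gene with a ratio under 0.5, and 0 genes had a ratio over 2. In 14.9% of these genes the mean length was shorter in all LKO livers than in any WT liver. How many of these genes have RNAs that differ as much in length as those of *Neat1* was not counted.

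**Figure D2:**
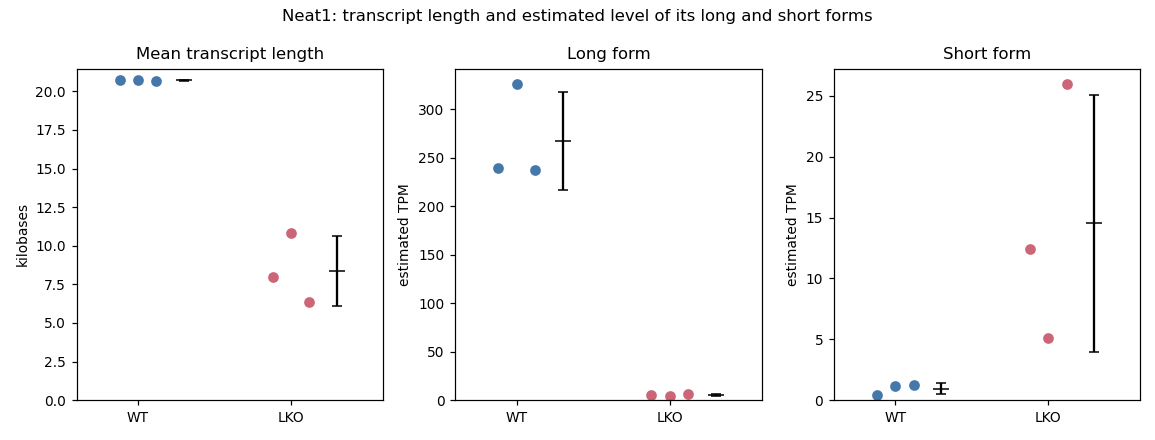
The panels show, for each of the 3 WT (blue) and 3 LKO (red) mice, the abundance-weighted mean length of *Neat1* RNA in kilobases and the estimated TPM of its long and short RNA, with bars for the mean ± SD and axes from 0. Mean length was 20.7 kilobases in each WT mouse and 6.34 to 10.8 kilobases in LKO livers, with the long RNA lower and the short RNA higher in every LKO mouse.

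*Malat1* (Entrez gene 72289, chromosome 19 from 5795690 to 5802672, minus strand) was the most abundant member. Its read counts were 383661, 367362 and 311073 in WT livers 1, 2 and 3 and 180847, 113867 and 180613 in LKO livers 1, 2 and 3. It took 0.603% to 0.800% of the counts in WT livers and 0.208% to 0.335% in LKO livers. After TMM scaling it was at 5146, 5615 and 4703 CPM in WT livers and 4109, 3265 and 3906 CPM in LKO livers. Each LKO value was below each WT value, as for 27.9% of all genes tested. The log2 fold change was −0.46 (SE 0.24, adjusted p = 0.161, edgeR quasi-likelihood F-test) and did not pass.

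The call for *Malat1* depended on the scale. With total counts the log2 fold change was −1.31 (adjusted p = 0.00209, edgeR), with log2(TPM + 1) it was −2.00 (adjusted p = 3.6e-04, limma), and with DESeq2 it was −0.43 (adjusted p = 0.0394). Relative to the median gene of the same scale, the value was −0.41 with total counts and −1.21 with log2(TPM + 1). In TPM, *Malat1* was at 1458 ± 223 in WT livers and 371 ± 99.6 in LKO livers (SD, n = 3). The ratio of *Malat1* to *Neat1* within a mouse does not depend on library scaling. In TPM it was 6.02, 5.17 and 5.23 in WT livers and 24.9, 27.9 and 13.3 in LKO livers. The mean log2 ratio differed by 1.94 in TPM and by 3.29 in read counts, which weight each RNA by its length, without overlap in TPM (exact two-sided permutation, p = 0.1, the least possible). *Neat1* was thus lower relative to its neighbor in 3 of 3 LKO mice. The small RNA cut from the end of *Malat1* RNA, *Mascrna*, was listed with 1 count in each of the 6 mice and was not compared.

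The proteins of the nuclear bodies did not move in 1 direction. Of 20 paraspeckle proteins, all tested, 5 were higher, 5 were lower and 10 did not pass, and their median log2 fold change was 0.03, against −0.04 for all genes. Over all genes tested, 19.6% were higher and 20.5% lower, and these shares also stand beside each gene list below. *Nono* and *Sfpq* encode RNA-binding proteins that assemble on the long *Neat1* RNA, and neither passed. Their log2 fold changes were 0.13 (adjusted p = 0.432) and −0.06 (adjusted p = 0.769, edgeR). They do not stand for the rest of the list, which held genes called in both directions. The smallest p-values were those of *Matr3*, a nuclear matrix protein, with a log2 fold change of 1.79 (SE 0.18, adjusted p = 3.34e-04) and *Cirbp*, a cold-inducible RNA-binding protein, with 1.71 (SE 0.24, adjusted p = 0.0011, edgeR). The number lower was 3 without WT mouse 1, WT mouse 3 or LKO mouse 2. With total counts, 2 were higher and 13 lower.

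Of 20 nuclear speckle proteins, 5 were higher, 3 were lower and 12 did not pass, with a median of 0.00. *Clk1* and *Clk4*, kinases that phosphorylate splicing factors, had the smallest p-values, with log2 fold changes of 1.35 (SE 0.14, adjusted p = 3.74e-04) and 0.97 (SE 0.17, adjusted p = 0.00249, edgeR). The number higher was 2 without WT mouse 1 and 3 without WT mouse 2, WT mouse 3, LKO mouse 1 or LKO mouse 2, and the number lower was 5 without LKO mouse 3. With total counts, 1 was higher and 15 lower.

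The imprinted RNAs were lower in mean level in LKO livers, and *Meg3* passed the test. *Meg3* (Entrez gene 17263, chromosome 12 from 109540996 to 109571729, plus strand) had 70, 92 and 73 read counts in WT livers and 19, 16 and 8 in LKO livers, without overlap. Its level was 1.15 ± 0.237 CPM in WT livers and 0.355 ± 0.158 CPM in LKO livers (SD, n = 3). The log2 fold change was −1.71 (SE 0.43, adjusted p = 0.0137, edgeR quasi-likelihood F-test), and it was also called with total counts (−2.58, or −1.68 relative to the median gene) and after the correction for gene length (−1.60). On the log2(TPM + 1) scale, where the median gene was at −0.79, *Meg3* was at −0.80. Its mean TPM, 0.843 in WT livers and 0.0592 in LKO livers, lay below the pseudocount of 1, which limits the change this scale can show. With a pseudocount of 0.1 the value was −2.58, or −1.24 relative to the median gene. With 8 to 19 counts per LKO mouse, the counting error is large. *Rian*, which lies downstream of *Meg3* in the same imprinted cluster, had a log2 fold change of −1.31 (SE 0.49, adjusted p = 0.0623, edgeR). *Dlk1*, the paternally expressed gene of the cluster, had 0, 0 and 4 counts in WT livers and 0 counts in every LKO mouse, and *Rtl1*, which overlaps *Meg3* on the other strand, had 0 counts in all mice.

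*H19* (Entrez gene 14955, chromosome 7 from 142575530 to 142578146, minus strand) had 43, 16 and 12 read counts in WT livers and 11, 0 and 4 in LKO livers. Every LKO count was below every WT count, but after TMM scaling LKO mouse 1, at 0.250 CPM, lay above WT mouse 2 at 0.245 and WT mouse 3 at 0.181. The 0 in LKO mouse 2 allows up to 3 counts, or 0.086 CPM. The log2 fold change was −1.51 (SE 0.86, adjusted p = 0.196, edgeR). It ranged from −2.76 without LKO mouse 1 to −0.85 without WT mouse 1, and a difference was not detectable at this depth with this test. On the log2(TPM + 1) scale, where most genes were lower, *H19* was called (−0.30, adjusted p = 0.0243, limma). The miRNA gene within *H19*, *Mir675*, had 2 to 3 counts in WT livers and 0 in LKO livers. *Igf2*, the growth factor gene that shares its imprinting control with *H19*, had 5 to 8 counts in WT livers and 10 to 13 in LKO livers (log2 fold change 1.54, SE 0.43, adjusted p = 0.0209, edgeR).

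*Kcnq1ot1* (Entrez gene 63830, chromosome 7 from 143213111 to 143296547, minus strand) was the longest member. Its read counts were 12255, 13307 and 8856 in WT livers and 6720, 3716 and 4797 in LKO livers. After TMM scaling it was at 164, 203 and 134 CPM in WT livers and 153, 107 and 104 CPM in LKO livers, so that LKO mouse 1 lay within the WT range. The log2 fold change was −0.47 (SE 0.22, adjusted p = 0.123, edgeR). The gene was called lower without LKO mouse 1 (−0.67, adjusted p = 0.0445), with total counts (−1.32, adjusted p = 0.00338) and after the correction for gene length (−0.73, adjusted p = 0.0156, all edgeR). Relative to the median gene the value with total counts was −0.42.

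The protein-coding genes of the *Kcnq1ot1* domain that are named here had no common direction. *Kcnq1*, a potassium channel gene that the RNA crosses on the other strand, had a log2 fold change of 0.21 (adjusted p = 0.597). The use of strand in the counting is not stated, so that reads of the pair could be shared. *Cdkn1c*, an inhibitor of the cell cycle, was higher (1.77, SE 0.40, adjusted p = 0.00922), with 17 to 48 counts in WT livers and 50 to 63 in LKO livers. *Slc22a18*, a transporter gene, was lower (−0.81, SE 0.16, adjusted p = 0.00531, edgeR). So was *Cd81* (−0.74, SE 0.16, adjusted p = 0.00733), whereas *Tssc4* did not pass (−0.24, SE 0.19, adjusted p = 0.353, edgeR). *Phlda2* had 18, 25 and 21 counts in WT livers and 2, 0 and 0 in LKO livers, and was not tested because it had more than 1 zero count.

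Of 32 imprinted protein-coding genes, 22 were tested, of which 6 were higher, 5 were lower and 11 did not pass, with a median of −0.06. Over all genes tested, 19.6% were higher and 20.5% lower. *Mcts2*, a gene for a protein of translation, rose by 2.33 on the log2 scale (SE 0.22, adjusted p = 3.15e-04) and *Dcn*, which encodes the matrix protein decorin, by 2.12 (SE 0.22, adjusted p = 3.69e-04, edgeR). With total counts, 2 were higher and 11 lower.

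Whole liver holds cells other than hepatocytes, and the levels of cell type markers were set beside these values. Summed over 7 genes, stellate cell and fibroblast markers were at 193 to 227 CPM in WT livers and 200 to 247 CPM in LKO livers, with 2 genes higher and 1 lower. For 6 endothelial markers the sum was 227 to 271 CPM in WT livers and 399 to 422 CPM in LKO livers, with 4 genes higher. For 6 Kupffer cell markers the sum was 267 to 408 CPM in WT livers and 436 to 848 CPM in LKO livers, with 3 genes higher. For 6 cholangiocyte markers it was 32.9 to 50.3 CPM in WT livers and 13.7 to 30.3 CPM in LKO livers. Of the 4 tested, 1 was lower, *Spp1*, and 3 did not pass. *Spp1* made up most of this sum, with means of 39.6 CPM in WT livers and 18.7 CPM in LKO livers. For 6 lymphocyte markers the sum was 3.55 to 4.89 CPM in WT livers and 1.86 to 3.66 CPM in LKO livers, with 1 gene lower. For 6 erythroid markers it was 192 to 324 CPM in WT livers and 879 to 1635 CPM in LKO livers, with 2 genes higher and 1 lower. The 7 hepatocyte markers in the table were at 44480 to 47570 CPM in WT livers and 106400 to 129600 CPM in LKO livers, with 3 genes higher and 1 lower. These directions depended on the scale. In TPM the endothelial sum was 116 to 159 in WT livers and 81.7 to 125 in LKO livers, the Kupffer cell sum 205 to 340 and 147 to 219, the stellate cell sum 63.8 to 84.8 and 30.4 to 35.8, and the hepatocyte sum 33750 to 37890 and 24050 to 38460. With total counts, 2 endothelial markers were higher and 2 lower, 2 Kupffer cell markers were higher and 2 lower, and 3 stellate cell markers were lower. No marker was at 0 in all mice. The part of cell composition in the values of the members was not tested, and in whole liver fewer cells of a type and less RNA per cell cannot be told apart.

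The 5 snoRNA hosts were higher in LKO livers after TMM scaling, each with no overlap between the genotypes, as for 26.1% of all genes tested, and *Snhg8* and *Snhg12* turned negative in TPM. *Gas5* (Entrez gene 14455, chromosome 1 from 161034601 to 161038539, plus strand), a growth arrest-specific RNA, had the highest log2 fold change of the 5. It had 1570, 1654 and 1965 read counts in WT livers and 4711, 3674 and 5877 in LKO livers, or 25.4 ± 4.33 CPM and 113 ± 12.1 CPM (SD, n = 3). Its log2 fold change was 2.16 (SE 0.18, adjusted p = 2.18e-04, edgeR quasi-likelihood F-test). *Gas5* was the only host called higher in all 15 other settings and with each mouse left out. In TPM it was at 56.6, 73.0 and 75.5 in WT livers and 108, 79.6 and 133 in LKO livers, still without overlap, where 2.98% of the genes tested were higher in TPM without overlap.

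*Snhg1* (Entrez gene 83673, chromosome 19 from 8723487 to 8726326, plus strand) had 562, 558 and 432 read counts in WT livers and 596, 807 and 2632 in LKO livers. LKO mouse 3 stood apart, at 56.9 CPM against 13.5 and 23.1 CPM in LKO livers 1 and 2 and 6.53 to 8.53 CPM in WT livers. The log2 fold change was 2.05 (SE 0.46, adjusted p = 0.00876) and was 1.28 without LKO mouse 3 (adjusted p = 0.00621, edgeR). With total counts it was 1.19 (adjusted p = 0.0562) and with log2(TPM + 1) 0.26 (adjusted p = 0.666, limma).

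*Snhg5* (Entrez gene 72655, chromosome 9 from 88521052 to 88522897, minus strand) had 293, 304 and 223 read counts in WT livers and 362, 474 and 832 in LKO livers. Its log2 fold change was 1.74 (SE 0.29, adjusted p = 0.00228), and with total counts it was 0.85 (adjusted p = 0.0387, edgeR). As for *Snhg1*, LKO mouse 3 was highest, at 18.0 CPM against 8.22 and 13.6 CPM in the other LKO mice. On the log2(TPM + 1) scale the value was 0.12 (adjusted p = 0.72, limma).

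*Snhg8* and *Snhg12* had the smallest changes of the hosts. *Snhg8* (Entrez gene 69895, chromosome 3 from 123507552 to 123508336, minus strand) had 779, 796 and 708 read counts in WT livers and 960, 742 and 878 in LKO livers. Its level was 11.1 ± 0.927 CPM in WT livers and 20.7 ± 1.5 CPM in LKO livers (SD, n = 3), a log2 fold change of 0.90 (SE 0.15, adjusted p = 0.00197, edgeR). With total counts it was 0.03 (adjusted p = 0.906, edgeR), and on the log2(TPM + 1) scale it turned to −0.62 and was called lower (adjusted p = 0.0122, limma). *Snhg12* (Entrez gene 100039864, chromosome 4 from 132308678 to 132311024, plus strand) had 235, 225 and 176 read counts in WT livers and 248, 189 and 408 in LKO livers. Its log2 fold change was 1.10 (SE 0.25, adjusted p = 0.00844), with total counts 0.25 (adjusted p = 0.508, edgeR) and on the log2(TPM + 1) scale −0.42 (adjusted p = 0.214, limma).

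**Figure D3:**
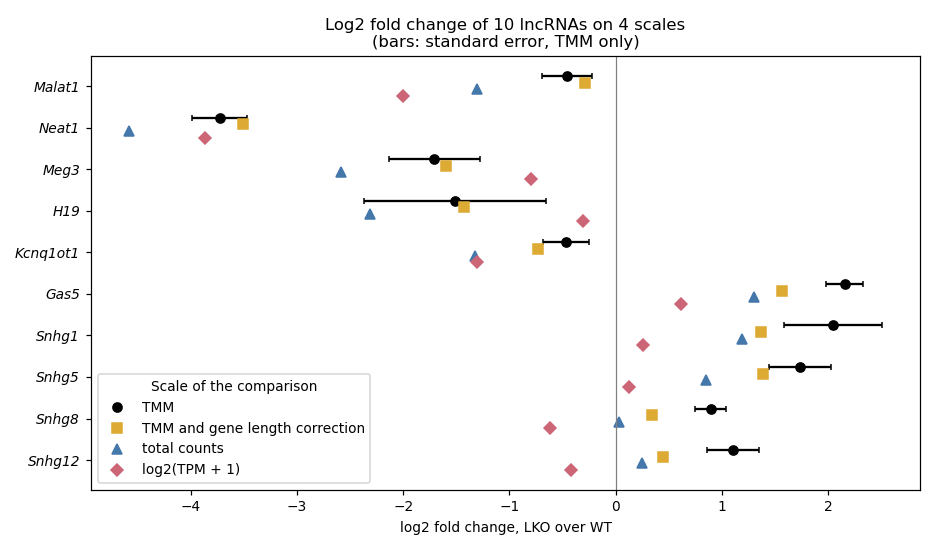
The horizontal axis gives log2 fold changes of LKO over WT mice for each of the 10 lncRNAs on 4 scales: TMM, TMM with a correction for gene length, total counts and log2(TPM + 1), with standard errors for TMM. *Neat1* stayed between −4.59 and −3.51 and *Gas5* between 0.62 and 2.16, whereas *Snhg8* and *Snhg12* changed sign on the TPM scale, on which the median gene was at −0.79.

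Gene length ran with direction in the set. The mean RNA length of the hosts was 476 to 1015 bases in every mouse, shorter than that of any other member, from *H19* at 2300 to 2561 bases up to *Kcnq1ot1*. After a correction for gene length, *Gas5* (1.57, adjusted p = 7.66e-04) and *Snhg5* (1.39, adjusted p = 0.00879) were still called higher, but *Snhg1* (1.37, adjusted p = 0.0538), *Snhg12* (0.45, adjusted p = 0.232) and *Snhg8* (0.34, adjusted p = 0.0865, all edgeR) were not. The mean length of *Gas5* RNA itself was 727 to 728 bases in WT livers and 724 to 726 bases in LKO livers. The part of gene length in the results was not tested further.

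*Zbtb37* and *Slc3a2*, which start close to a host on the other strand, did not pass the test. The start of *Zbtb37* lies 263 bases from that of *Gas5*, and it had a log2 fold change of 0.19 (SE 0.20, adjusted p = 0.478). *Slc3a2*, an amino acid transporter gene that starts 118 bases from *Snhg1*, had −0.36 (SE 0.22, adjusted p = 0.226, all edgeR). The differences between these genes and the hosts were not tested.

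The annotation places 23 snoRNA genes inside the 5 hosts, on the same strand, and all were tested. Of these, 3 were higher and 20 did not pass, with a median log2 fold change of 0.78. Among all 278 snoRNA genes tested, 50 were higher and 5 lower, with a median of 0.43. *Snord22* in *Snhg1* had 27, 50 and 32 counts in WT livers and 207, 146 and 177 in LKO livers, a log2 fold change of 2.98 (SE 0.32, adjusted p = 4.28e-04, edgeR). The other 7 snoRNA genes of *Snhg1* had 3 to 33 counts and values from −0.16 to 1.11, and none of them passed.

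Inside *Gas5*, 1 of 8 snoRNA genes was called, *LOC115487677*, with 58 to 68 counts in WT livers and 61 to 92 in LKO livers (log2 fold change 1.03, SE 0.31, adjusted p = 0.0277, edgeR). Before any scaling, the counts of the 8 snoRNAs together were 254, 284 and 234 in WT livers and 333, 270 and 189 in LKO livers. These overlapped, while the unscaled counts of spliced *Gas5* did not. Unscaled counts read lower in LKO livers than TMM-scaled levels do. After TMM scaling the median log2 fold change of the 8 snoRNAs was 0.83, against 2.16 for *Gas5*. Inside *Snhg12*, *Snora44* rose from 11 to 15 counts to 21 to 46 (log2 fold change 1.85, SE 0.41, adjusted p = 0.00855, edgeR). The 2 snoRNAs of *Snhg5* had 6 to 19 counts, and neither passed. *Snora24* in *Snhg8* was listed with 1 count in every mouse, so that its log2 fold change of 0.64 reflects the scaling factors alone. The kits named for these libraries are not designed for RNAs this short, and the snoRNA counts are low.

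**Figure D4:**
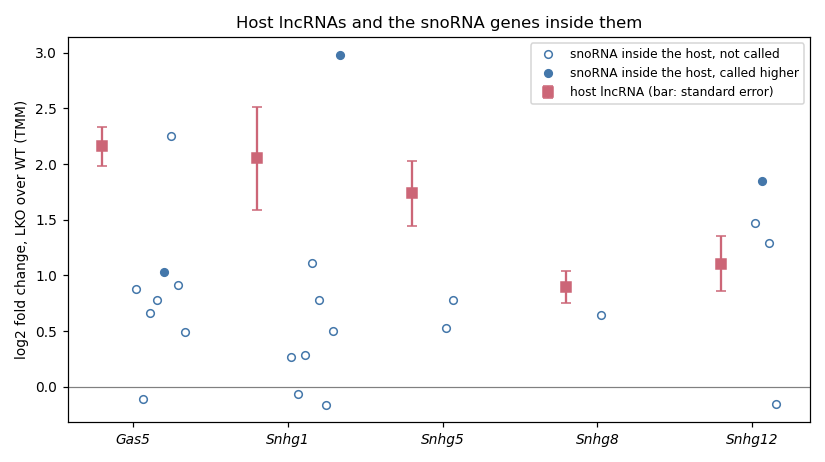
The vertical axis gives log2 fold changes of LKO over WT mice after TMM scaling, with a square and its standard error for each of the 5 hosts and a circle for each of the 23 snoRNA genes inside them, filled for the 3 called higher. *Snord22* lay at 2.98 above its host *Snhg1* at 2.05, and apart from circles at 1.85 in *Snhg12* and 2.26 in *Gas5* the others lay between −0.16 and 1.47.

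Other snoRNA-host lncRNAs did not all follow the 5 members. Of 17, all tested, 6 were higher, 2 were lower and 9 did not pass, with a median of 0.03. The smallest p-values were those of *Snhg11*, at −2.67 (SE 0.32, adjusted p = 5.9e-04), and *Epb41l4aos*, at 1.84 (SE 0.24, adjusted p = 7.33e-04, edgeR). *Snhg11* had 389 to 673 counts in WT livers and 42 to 68 in LKO livers, without overlap. The number lower was 1 without WT mouse 2, WT mouse 3, LKO mouse 1 or LKO mouse 3. With total counts, 3 were higher and 6 lower. Hosts were therefore found in both directions.

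Of 15 other nuclear or regulatory lncRNAs, 11 were tested, with 4 higher, 0 lower and a median of 0.64. Without genes annotated as small non-coding RNA, 2 were higher and 0 lower, so that the 4 include RNAs of that kind. *Terc*, the RNA of telomerase, had 45 to 69 counts in WT livers and 422 to 457 in LKO livers (log2 fold change 3.74, SE 0.24, adjusted p = 1.67e-04), and *Oip5os1*, also known as Cyrano, rose by 0.87 on the log2 scale (SE 0.14, adjusted p = 0.00167, edgeR). At an unadjusted p under 0.05 in edgeR's quasi-likelihood fit 2 genes were lower, *Ftx* and *Rian*, and 1 gene was called lower by edgeR's exact test and by DESeq2. The number lower was 3 without LKO mouse 1. With total counts, 2 were higher and 4 lower.

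The proteins that bind snoRNAs, 8 genes, held 3 higher and 1 lower gene, with a median of 0.28, where 19.6% of all genes were higher and 20.5% lower. *Nop10*, of the box H/ACA particle, rose by 1.58 on the log2 scale (SE 0.18, adjusted p = 4.89e-04), and *Snu13*, of the box C/D particle, by 0.71 (SE 0.15, adjusted p = 0.00604, edgeR). The lower gene was not called without WT mouse 1, WT mouse 2, LKO mouse 1 or LKO mouse 3, each giving 0 lower. With total counts, 1 was higher and 3 lower.

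Of 15 factors of nonsense-mediated decay, the pathway that degrades spliced *Gas5* RNA, 1 was higher, 5 were lower and 9 did not pass, with a median of −0.34. Over all genes tested, 19.6% were higher and 20.5% lower. Any part of this pathway in the level of *Gas5* was not tested. *Magoh*, of the exon junction complex, rose by 1.87 on the log2 scale (SE 0.18, adjusted p = 3.15e-04), and *Upf1*, the central helicase of the pathway, fell by 0.70 (SE 0.14, adjusted p = 0.0061, edgeR). The number lower was 2 or 3 without WT mouse 1, 2 or 3 or LKO mouse 1 or 2, and 13 with total counts.

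Levels of different members were compared in TPM, which is per length. In WT mice the order was *Malat1* (1458 ± 223), *Neat1* (268 ± 50.8), *Gas5* (68.4 ± 10.3), *Snhg1* (31.3 ± 6.15), *Snhg8* (27.9 ± 4.03), *Snhg12* (10.1 ± 1.91), *Snhg5* (7.79 ± 1.76), *Kcnq1ot1* (3.98 ± 1.08), *Meg3* (0.843 ± 0.136) and *H19* (0.282 ± 0.185 TPM, SD, n = 3). *Snhg1* and *Snhg8* overlapped, as did *Snhg12* and *Snhg5*, whereas the other neighbors in this order did not. In LKO mice *Neat1*, at 19.5 ± 11.6 TPM, came after *Malat1* (371 ± 99.6), *Gas5* (107 ± 26.9) and *Snhg1* (46.1 ± 39.0). It overlapped with *Snhg1*, with *Snhg8* (17.9 ± 2.80), with *Snhg5* (8.95 ± 4.04) and with *Snhg12* (7.58 ± 3.17 TPM, SD, n = 3). Of the neighbors in the LKO order, *Gas5* and *Snhg1* overlapped as well, as did *Snhg5* and *Snhg12*, and *Meg3* and *H19*. Among the genes tested, *Neat1* moved from rank 346 by mean TPM in WT livers to rank 1626 in LKO livers, and *Gas5* from rank 1176 to rank 447. The ratio of *Gas5* to *Neat1* within a mouse was 0.236, 0.223 and 0.317 in WT livers and 6.25, 8.68 and 4.17 in LKO livers, so that the order of the pair was turned around in 3 of 3 LKO mice (exact two-sided permutation, p = 0.1, the least possible).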

How the data were processed

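Liver RNA of 3 WT and 3 LKO mice was sequenced in pairs of reads. Per the labels and methods, the authors aligned reads to mm10 with HISAT2 2.1.0 and Bowtie2 2.3.4.1 and assembled and counted them with StringTie 2.1.3b. The deposited table holds read counts, FPKM and TPM per gene and mouse, with no pooled values. The labels name a poly(A) kit and the methods a ribosomal RNA removal kit, and use of strand in counting is not given in the sources used here.

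Here, counts of genes with at most 1 zero count among the 6 mice were tested with edgeR 4.0.16 (R 4.3.3, TMM, quasi-likelihood test, two-sided, Benjamini-Hochberg over all genes tested, threshold 0.05). The common biological coefficient of variation was 0.2544. In simulated counts of 18428 genes, 99.5% of 200 genes changed by 2 on the log2 scale were recovered, with 10 false calls. The changed genes were drawn above a minimum mean count, with the common coefficient of variation for all genes and no shift in library composition. The rate therefore does not carry over to *H19* and the snoRNAs with few counts. Alternatives included DESeq2 1.42.0, limma 3.58.1 on log2(TPM + 1), other scaling factors and filters, and a lowess correction for gene length. SE is the standard error of the log2 fold change. Each mouse was treated as 1 sample, and intervals for 0 counts cover counting error only. Gene positions and promoters are from RefSeq (GRCm38.p6), of which 45679 of 45777 genes matched.

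The members and gene lists were chosen with earlier results of these data known. Named genes were the members, *Pak4*, genes inside, across or within 5 kb of a member on the rules of the annotation, set imprinted neighbors, and the 2 genes with the smallest p of each list. *Nono*, *Sfpq*, *Rian*, *Ftx*, *Spp1*, *Cd81* and *Tssc4* were added after their values were seen.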

Additional observations from a re-analysis of the deposited data

How the results depend on the processing

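With TMM, 5 members were called higher and 2 lower. When total counts replaced TMM, 2 were called higher and 4 lower, the latter *Neat1*, *Meg3*, *Malat1* and *Kcnq1ot1*. With limma on log2(TPM + 1), and again on log2(TPM + 0.1), 1 was called higher and 6 lower, which were these 4, *H19* and *Snhg8*. The gene length correction left 2 called higher, with or without the replicate block. A minimum of 10 counts in every sample left 1 called lower, because *Meg3* and *H19* were then not tested. *Snhg8* turned to −0.62 and −0.64, and *Snhg12* to −0.42 and −0.47, with pseudocounts of 1 and 0.1 on the TPM scale. With total counts 9575 and with log2(TPM + 1) 13322 of all genes tested were called lower, and the cause was not tested. Leaving out each mouse in turn gave 5 to 5 called higher and 2 to 3 lower, with *Kcnq1ot1* the third without LKO mouse 1. DESeq2 called 3 lower, with *Malat1* the third. The number of members with TPM that did not overlap was 7, of which 6 were lower, where 74.9% of all genes tested were lower without overlap and 2.98% higher. It was 6 in FPKM and 7 to 8 with each mouse left out.

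Over all genes, deviations from the group mean were barely correlated between mice with the same replicate number (Pearson r = 2.0e-04, −0.039 and −0.0557). They were as weakly correlated between mice with different numbers (−0.0205 to 0.0563). With deviations taken from means of 3 mice, this check cannot decide whether the numbers pair the mice. With the replicate block, 5 members were called higher and 2 lower, and over all genes 3129 higher and 3302 lower. Depth limits *H19* and *Meg3*, with 0 to 92 counts, and the snoRNAs, whose highest count was 207. With 3 mice per group the exact test cannot go below 0.1.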
